A study of Mus musculus with 12 samples.

Results

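RNA recovered with an anti-His antibody from mouse 2-cell embryos that carried His-tagged Eif1ad3 was compared with RNA of 2-cell embryos that had not gone through a pulldown. The features compared were genes that reached 1 CPM (a gene's reads scaled by the library total) in at least 2 of the 6 libraries involved. This rule kept 14387 of the 19390 genes listed. In the pulldown, an RNA immunoprecipitation, RNA is sequenced after being recovered together with a protein. Zygotes were injected with in vitro transcribed mRNA of Eif1ad3 with a His tag at 200 ng/uL, grown to the 2-cell stage and lysed, with 200 cells per replicate pooled. The 2 His libraries came from magnetic beads with the anti-His antibody. The 2 IgG libraries, the study's negative control, came from embryos of the same kind on beads with IgG. The 4 unprecipitated libraries comprised 2 labelled input and 2 labelled total. The genotype label is Eif1ad3_OE for input, His and IgG samples, and WT for the total samples. The headers of the 4 columns form the pairs In_ni and In_total, which did not settle which pair was input. The 4 were therefore taken as 1 group, and their pairs are called ni and total. Replicates carry the letters A and B, and values are given in that order. Nothing in the labels says whether the pools of the replicates came from separate injections, so p-values measure only the spread between these samples, which may be technical. In the unprecipitated group this spread also holds the difference between the input and total samples, whose genotype labels differ.

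In translation initiation, the factor eIF1A binds the small ribosomal subunit beside eIF1 and helps the scanning complex find the start codon, and the GTPase eIF5B then joins the subunits. Eif1ad3 belongs to a family of mouse genes named for an eIF1A-like domain. The 2-cell stage is when the mouse embryo makes its major switch from RNAs stored in the egg to RNAs transcribed from its own genome. At this stage some maternal RNAs are held silent with short poly(A) tails, while others are deadenylated and destroyed.

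Totals recovered from the CPM values were 15715664 to 25209070 reads in the unprecipitated libraries, 7917501 to 8364126 in His and 4678563 to 5925209 in IgG. A floor of 3 reads was 0.119 to 0.191 CPM in the unprecipitated libraries and 0.359 to 0.379 CPM in His. PCR reads without molecular identifiers are not independent molecules, so floors cover counting error only. Pearson's correlation of log2(CPM + 1) across the 14387 genes, which are not independent replicates, was 0.987 within the ni pair, 0.978 within the total pair and 0.884 within the His pair. Between His and unprecipitated libraries it was 0.797 to 0.835. The median SD of a gene between replicates was 0.15 in the ni pair, 0.21 in the total pair and 0.39 in the His pair, and it was 0.37 over the 4 unprecipitated libraries. Markers of the oocyte and 2-cell embryo summed to 9089 to 10589 CPM in the unprecipitated libraries and to 9434 and 9501 CPM in His. These sums were mostly Gdf9, Bmp15 and Dppa3, and of the 9 markers 2 rose and 4 fell. The median marker was at 204 to 258 CPM in the unprecipitated libraries and at 73.2 and 62.1 CPM in His. Zbed3 had the highest CPM in each of the 8 libraries.

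The His libraries held a different RNA population from the unprecipitated ones. Transcripts of ribosomal and respiratory chain proteins were among those higher, and transcripts of mRNA-binding proteins, chaperones, oocyte NLRP proteins and the Zscan4, Obox and Tdpoz families were among those lower. The limma test called 5779 of the 14387 genes, or 40.2%, at an adjusted p under 0.05. Higher in His were 2047 genes (14.2%) and lower were 3732 (25.9%). Both His libraries were above all 4 unprecipitated libraries in 3402 genes (23.6%) and below all 4 in 4832 (33.6%). The log2 fold change (log2FC, His minus unprecipitated in log2(CPM + 1), a scale on which changes of low genes appear too small) had a median of -0.18. Its quartiles were -1.18 and 0.70 and its range -5.72 to 3.67. Large differences were more often decreases: 295 called genes rose and 1524 fell by a log2FC of at least 2, and 22 rose and 361 fell by at least 3. Of the calls, 35.4% were increases. After quantile normalization, which gives every library the same distribution of values, 2749 genes rose and 2765 fell, so that 49.9% of calls were increases. Without ni A, 1261 genes rose. CPM measure shares of a library, so the amount of RNA recovered was not measured, and in pooled embryos fewer cells with a transcript and less transcript per cell cannot be told apart.

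**Figure D1:**
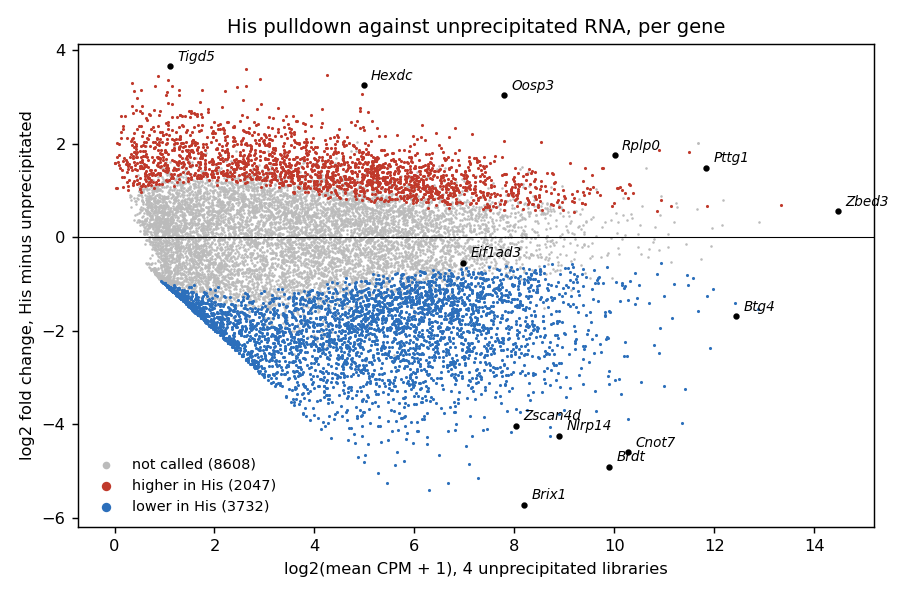
Log2 fold change (His minus unprecipitated) against log2(mean CPM + 1) of the 4 unprecipitated libraries for the 14387 genes tested; red points are the 2047 genes called higher, blue the 3732 called lower and grey the others, with some genes of the text in black. The blue points reach further from 0 (to -5.72, Brix1) than the red ones (to 3.67, Tigd5), and the lower left edge is set by genes with no or few reads in His.

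The share of genes that fell grew with their unprecipitated level up to 1000 CPM, and the share that rose moved less. Among genes with a mean of 1 to 3 CPM in the unprecipitated libraries, 18.9% fell and 9.68% rose. At 30 to 100 CPM the shares were 33.2% and 16.5%. At 300 to 1000 CPM they were 48.5% and 15.3%. Of the 105 genes at 1000 CPM or more, 41.0% fell and 18.1% rose. The 946 genes under 1 CPM could hardly fall, and their shares were 0.634% and 23.0%. Some genes entered the test through 1 group only: 196 of the genes called higher passed it through the His libraries alone, and 1314 of the genes called lower through the unprecipitated ones alone.

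Few abundant RNAs were entirely missing from the pulldown. Of 6978 genes with at least 10 CPM in each unprecipitated library, 6 had no read in either His library. For comparison, 1205 of them had no read in either IgG library. Among all genes tested, 732 had no read in either His library, and 10 of these had an unprecipitated mean of at least 10 CPM. The most abundant of the 10, named after its values were seen, was Serpinb3a, of the serine protease inhibitor family. It was at 26.1 and 17.6 CPM in ni and 20.1 and 12.4 CPM in total. Against the floor of 3 reads over both His libraries (0.184 CPM), it was at least 103-fold lower. In the other direction, 2 genes had reads in His and none in all 4 unprecipitated libraries.

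The 10 largest increases among called genes with a mean of at least 10 CPM and no overlap of the groups were of unrelated functions. None was abundant before the pulldown: the highest unprecipitated mean was 30.7 CPM. Tigd5, a gene derived from a transposable element, was at 1.29 and 1.55 CPM in ni, 1.46 and 0.359 CPM in total, and 17.1 and 38.3 CPM in His. Its log2FC was 3.67 ± 0.49 SE (adjusted p = 8.49e-04), and IgG held 38.99 and 0 CPM. Both His libraries stood well above the 4 others, and the IgG libraries differed from each other. Chtf18, part of a clamp loader used in sister chromatid cohesion, was at 22.3 and 21.9 CPM in ni, 11.3 and 16.8 CPM in total, and 224 and 188 CPM in His (log2FC 3.48 ± 0.33 SE, adjusted p = 1.81e-04). Hexdc, a hexosaminidase, was at 30.7 ± 6.37 CPM unprecipitated and 298 ± 30.1 CPM in His (SD, n = 4 and n = 2), 9.70-fold higher (log2FC 3.26 ± 0.27 SE, adjusted p = 1.23e-04). For Tbl3, a component of the machinery that processes small-subunit ribosomal RNA, the means were 29.8 ± 5.66 CPM unprecipitated and 256 ± 47.2 CPM in His (log2FC 3.07 ± 0.27 SE, adjusted p = 1.49e-04). In these 3 genes the IgG values were also far above the unprecipitated ones, at 522 and 566 CPM for Chtf18, 408 and 257 CPM for Hexdc and 1091 and 519.8 CPM for Tbl3.

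The rest of the 10 were spread over transport, tRNA modification and signalling. Tcirg1, a subunit of the proton pump of acidic organelles, had a log2FC of 3.39 ± 0.34 SE (adjusted p = 2.49e-04). Ctu2, which thiolates wobble uridines of tRNAs, had one of 3.24 ± 0.44 SE (adjusted p = 9.08e-04). Signalling proteins of the cell membrane were represented by Fzd9, a Wnt receptor (log2FC 3.21, adjusted p = 0.00711), Adcy6, an adenylyl cyclase (log2FC 3.15, adjusted p = 0.00423), and Notch2, a receptor (log2FC 3.13, adjusted p = 8.06e-04). Notch2 was at 3.17 and 4.92 CPM in ni, 4.26 and 2.21 CPM in total, and 34.4 and 43.2 CPM in His. Neither Adcy6 nor Notch2 had a read in IgG. Snora47, a small nucleolar RNA that guides RNA modification, was at 2.14 and 2.26 CPM in ni, 8.34 and 8.07 CPM in total, and 57.6 and 72.1 CPM in His, and at 447 and 2704 CPM in IgG. It overlaps Zbed3 in the RefSeq table. Whether the authors' counting used strand is not given in the sources used here, so reads of overlapping genes cannot be assigned with certainty. Tigd5, Chtf18, Hexdc, Ctu2 and Notch2 overlap another gene in that table too.

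The 10 largest decreases were of RNAs with unprecipitated means of 30.8 (Srfbp1) to 949 CPM (Brdt). Brix1, a factor in assembly of the large ribosomal subunit, was at 319 and 288 CPM in ni, 307 and 252 CPM in total, and 5.74 and 3.54 CPM in His. Its mean was 62.8-fold lower in His (log2FC -5.72 ± 0.26 SE, adjusted p = 2.23e-05). Brdt, a germline bromodomain protein that reads acetylated histones, was at 977 and 924 CPM in ni, 1074 and 822 CPM in total, and 36.5 and 25.6 CPM in His. It was 30.6-fold lower (log2FC -4.90 ± 0.22 SE, adjusted p = 2.23e-05). In both genes the 4 unprecipitated values lay close together and the 2 His values far below them. Eif3j1, a subunit of the scaffold initiation factor eIF3, was at 77.8 ± 15.3 CPM unprecipitated and 0.854 ± 0.314 CPM in His (log2FC -5.40 ± 0.33 SE, adjusted p = 6.52e-05). Ap3s1, a subunit of the AP-3 adaptor that sorts lysosomal proteins, was at 153 ± 15.4 CPM unprecipitated and 3.54 ± 1.79 CPM in His (log2FC -5.14 ± 0.30 SE, adjusted p = 6.22e-05). Gm12183, a predicted gene, was at 135 ± 27.7 CPM unprecipitated and 3.78 ± 1.42 CPM in His (log2FC -4.84 ± 0.31 SE, adjusted p = 6.83e-05). Sugar chain removal from misfolded proteins and vesicle tethering were represented by Ngly1 (log2FC -5.25, adjusted p = 8.07e-05) and Vps50 (log2FC -4.88, adjusted p = 1.62e-04). The last 3, Cibar1, Bccip and Srfbp1, had no read in His A. In His B they were at 0.253, 0.379 and 0.253 CPM, against unprecipitated means of 42.6, 37.6 and 30.8 CPM. These 10 RNAs were scarce in IgG too, where Eif3j1 (0.506 and 34.0 CPM) and Brdt (13.7 and 2.56 CPM) had the highest values.

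**Figure D2:**
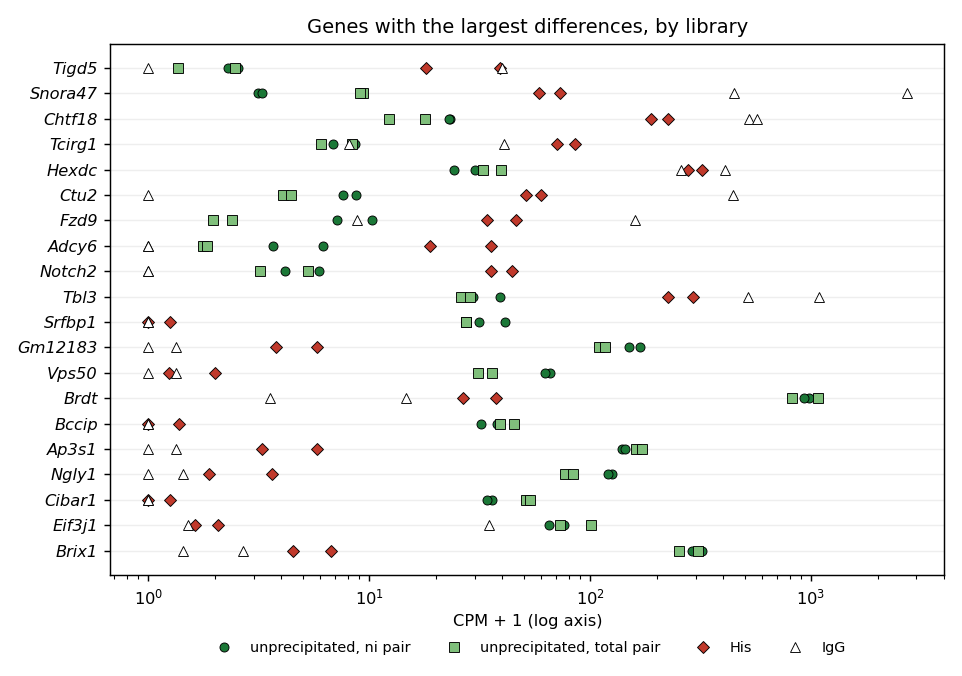
CPM + 1 on a log axis in each library for the 10 genes with the largest increase (top) and the 10 with the largest decrease (bottom); green circles and squares are the ni and total libraries, red diamonds His and open triangles IgG. The red symbols stand apart from the green ones in every row, and IgG A and B often differ by a wide margin, as for Ctu2 (440.3 and 0 CPM).

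The transcript of the tagged protein itself did not pass the test. Eif1ad3 was at 109 and 91.6 CPM in ni, 185 and 111 CPM in total, and 80.3 and 83.6 CPM in His. Both His libraries lay below all 4 unprecipitated libraries (log2FC -0.54 ± 0.30 SE, adjusted p = 0.174). The total libraries were above the ni libraries, total B by little, although the labels give 1 kind of unprecipitated sample as overexpressing Eif1ad3. In IgG it was at 1.35 and 30.8 CPM. Genes of this family resemble each other, and reads may have been split between copies. In 7 of the 8 other Eif1ad genes the His and unprecipitated libraries overlapped. Eif1ad7 was at 116 and 87.1 CPM in ni, 255 and 150.2 CPM in total, and 108 and 92.7 CPM in His (log2FC -0.49 ± 0.38 SE, adjusted p = 0.335). The exception was Eif1ad, with both His libraries above the others, at 56.3 and 63.2 CPM in ni, 65.5 and 69.2 CPM in total, and 89.4 and 99.5 CPM in His (log2FC 0.57 ± 0.23 SE, adjusted p = 0.0778). With limma none of the 9 genes passed after adjustment. Eif1ad was the single member under 0.05 before adjustment, with an unadjusted p of 0.0359, and passed with DESeq2 (adjusted p = 0.0242) but not with edgeR (adjusted p = 0.0817). Against the total pair alone, Eif1ad6 (adjusted p = 0.0460) and Eif1ad8 (adjusted p = 0.0299) were lower in His. The log2FC of the 9 genes ran from -1.19 in Eif1ad6 up to 0.57 in Eif1ad, with a median of -0.49 against -0.18 over all genes. The position of the list relative to all genes turned with the unprecipitated pair used. It was -0.31 with all 4 libraries, 0.18 against the ni pair and -0.81 against the total pair.

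Among the canonical factors eIF1, eIF1A and eIF5B, 1 of 5 tested genes fell and none rose. Eif5b was at 82.4 and 76.2 CPM in ni, 51.4 and 52.8 CPM in total, and 29.4 and 28.04 CPM in His (log2FC -1.14 ± 0.29 SE, adjusted p = 0.0153). Against the total pair alone it did not pass (adjusted p = 0.0572). Eif1 was at 1675 and 1401 CPM in ni, 2838 and 2741 CPM in total, and 2122 and 2244 CPM in His, so that His lay between the pairs. Its log2FC was 0.08 ± 0.31 SE (adjusted p = 0.856), 0.51 against the ni pair and -0.35 against the total pair. Eif1a (log2FC 0.79 ± 0.53 SE, adjusted p = 0.262) and Eif1b (log2FC 0.53 ± 0.36 SE, adjusted p = 0.261) did not pass.

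**Figure D3:**
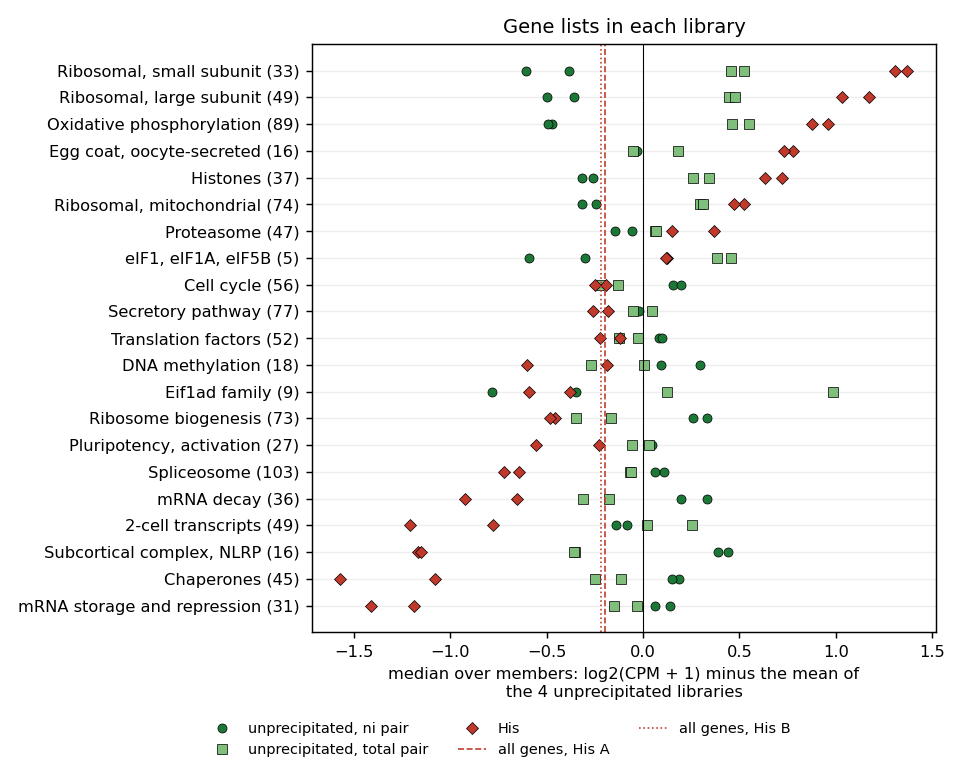
Median over the tested members of each gene list other than the cell type markers (number in brackets) of log2(CPM + 1) minus the gene's mean over the 4 unprecipitated libraries, with 1 symbol per library; dashed and dotted red lines mark the medians over all 14387 genes in His A and B (-0.20 and -0.22). Among these lists the His libraries lie furthest right for ribosomal proteins of both subunits and furthest left for mRNA storage and repression factors in His A and for chaperones in His B, and in the ribosomal and respiratory lists the total libraries lie between the ni and the His libraries.

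Transcripts of cytosolic ribosomal proteins, the structural proteins of the ribosome, were higher in His or did not pass, with 1 exception. Of 49 tested large-subunit genes (of 50 in the table) 21 rose and 1 fell. Of 33 tested small-subunit genes 18 rose and none fell. The shares that rose were 42.9% and 54.5%, against 14.2% of all genes, and the median log2FC was 1.14 and 1.27. Rplp0, a protein of the stalk that binds elongation factors, was at 970.3 and 1089 CPM in ni, 939.6 and 1103 CPM in total, and 3489 and 3424 CPM in His. It was 3.37-fold higher (log2FC 1.76 ± 0.18 SE, adjusted p = 2.84e-04), with the 4 unprecipitated values close together. Rpl41 was at 324 and 257 CPM in ni, 634 and 505 CPM in total, and 1032 and 1060.2 CPM in His (log2FC 1.37 ± 0.34 SE, adjusted p = 0.0134), a call that was lost without His B (adjusted p = 0.0511). In Rpl41 the total libraries stood between the ni and the His libraries, and the same order held in Fau, which encodes a small-subunit protein fused to a ubiquitin-like one. Fau was at 68.1 and 65.8 CPM in ni, 108 and 121 CPM in total, and 219 and 206 CPM in His (log2FC 1.27 ± 0.30 SE, adjusted p = 0.0110). Larger increases, at lower levels, were those of Rpl27a (log2FC 2.06 ± 0.41 SE, adjusted p = 0.00482) and Rps18 (log2FC 2.27 ± 0.43 SE, adjusted p = 0.00423).

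Some ribosomal genes did not follow the others. Rpl4 was the single member that fell, at 149 and 164 CPM in ni, 135 and 155 CPM in total, and 15.1 and 23.1 CPM in His (log2FC -2.94 ± 0.26 SE, adjusted p = 1.43e-04). Rps27l, a paralog of Rps27, was at 257 and 155 CPM in ni, 962 and 714 CPM in total, and 470.0 and 494 CPM in His, so that His lay between the pairs. Its log2FC was 0.24 ± 0.64 SE (adjusted p = 0.782), 1.27 against the ni pair and -0.78 against the total pair. The lists as a whole also depended on the pair. For the large subunit, the median relative to all genes was 1.87 against the ni pair and 0.77 against the total pair. For the small subunit it was 1.93 and 0.91. The IgG libraries were high in these RNAs as well: relative to the unprecipitated mean, the median over large-subunit members was -0.36 and -0.50 in ni, 0.44 and 0.48 in total, 1.17 and 1.03 in His and 1.34 and 1.03 in IgG. Many ribosomal protein genes have processed copies in the genome, so reads may have been split or lost between copies.

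Most genes for mitochondrial energy production did not pass, and those that passed were mostly higher. Of 89 tested genes for nuclear-encoded oxidative phosphorylation subunits (of 90 in the table), 20 rose (22.5%, against 14.2% of all genes) and 2 fell (2.25%, against 25.9%), with a median log2FC of 0.87. Atp5d, a subunit of the ATP synthase rotor, was at 6.00 and 4.36 CPM in ni, 6.24 and 7.71 CPM in total, and 36.3 and 35.0 CPM in His (log2FC 2.39 ± 0.37 SE, adjusted p = 0.00165), with no read in IgG. The members that fell were Ndufv2 of complex I, at 21.97 ± 3.27 CPM unprecipitated and 4.55 ± 0.176 CPM in His (log2FC -2.04 ± 0.34 SE, adjusted p = 0.00247), and Sdha of complex II, named after its values were seen (log2FC -1.05 ± 0.31 SE, adjusted p = 0.0273). The most abundant members, Atp5b at 979.8 ± 177 CPM unprecipitated and 1255 ± 141 CPM in His and Cox8a at 624 ± 261 CPM unprecipitated and 1031 ± 59.4 CPM in His, did not pass (adjusted p = 0.213 and 0.0953). Relative to all genes the list's median was 1.04, and it was 1.58 against the ni pair and 0.47 against the total pair.

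For the proteins of the mitochondrion's own ribosome, 51 of 74 tested genes did not pass. The others were 15 that rose (20.3%, against 14.2% of all genes) and 8 that fell (10.8%, against 25.9%), and the median log2FC was 0.49. Mrps11 rose and was at 6.92 ± 2.42 CPM unprecipitated and 29.9 ± 4.40 CPM in His (log2FC 2.01 ± 0.42 SE, adjusted p = 0.00606). Mrps22, of the same subunit, fell and was at 16.0 ± 6.34 CPM unprecipitated and 2.31 ± 1.47 CPM in His (log2FC -2.36 ± 0.49 SE, adjusted p = 0.00608). Neither had a read in IgG. Mrpl48, the most abundant, was at 213 and 173 CPM in ni, 451 and 383 CPM in total, and 505 and 504 CPM in His and did not pass (adjusted p = 0.104). Relative to all genes the list's median was 0.66, and 0.30 against the total pair.

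Factors that build ribosomes were split between both directions. Of 73 tested members, 14 rose (19.2%) and 25 fell (34.2%), with a median log2FC of -0.50. For this and the other lists, the shares stand against 14.2% higher and 25.9% lower among all genes tested. The share that fell depended on level, however, and the lists were not matched for it. It was 33.2% of all genes at 30 to 100 CPM unprecipitated, 43.1% at 100 to 300 CPM and 48.5% at 300 to 1000 CPM. Rrp9, a protein of the box C/D particle needed for small-subunit processing, was at 121 and 149 CPM in ni, 73.4 and 105 CPM in total, and 607 and 502 CPM in His (log2FC 2.34 ± 0.29 SE, adjusted p = 6.12e-04). Ltv1, which helps export and mature the small subunit, was at 57.8 and 47.8 CPM in ni, 37.0 and 31.1 CPM in total, and 1.55 and 2.15 CPM in His (log2FC -3.93 ± 0.37 SE, adjusted p = 1.78e-04). The groups did not overlap in either gene. In IgG, Rrp9 was at 2254 and 2456 CPM and Ltv1 at 90.0 and 0 CPM, so that A and B disagreed for Ltv1. Imp4, another protein of the processing machinery, was at 192 ± 27.1 CPM unprecipitated and 371 ± 82.8 CPM in His (log2FC 0.94 ± 0.23 SE, adjusted p = 0.0132), a call lost without His A (adjusted p = 0.0986). The list's median relative to all genes was -0.33, and -0.02 against the total pair.

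Translation factors were split as well, at times within 1 complex. Of 52 tested members, 12 rose (23.1%) and 18 fell (34.6%), with a median log2FC of -0.31. Eif2s1, a subunit of eIF2, which carries the initiator tRNA, was at 83.0 and 64.7 CPM in ni, 73.6 and 78.9 CPM in total, and 4.66 and 1.77 CPM in His. It was 23.3-fold lower (log2FC -4.26 ± 0.35 SE, adjusted p = 1.23e-04). Eif2b5, the catalytic subunit of the exchange factor that recharges eIF2, was at 19.6 and 16.0 CPM in ni, 12.5 and 12.5 CPM in total, and 52.7 and 46.5 CPM in His (log2FC 1.67 ± 0.32 SE, adjusted p = 0.00450). The RNAs of these cooperating factors thus differed in opposite directions, and IgG held Eif2s1 at 0 in both libraries and Eif2b5 at 572 and 395 CPM. Subunits of eIF3, chosen after their values were seen, went both ways: Eif3e fell (log2FC -3.60 ± 0.38 SE, adjusted p = 2.79e-04) and Eif3k rose (log2FC 1.27 ± 0.35 SE, adjusted p = 0.0188). Eif5a, the most abundant factor, which helps stalled ribosomes form peptide bonds, was at 2243 ± 241 CPM unprecipitated and 3559 ± 16.6 CPM in His (log2FC 0.67 ± 0.19 SE, adjusted p = 0.0223). This call was lost without ni A (adjusted p = 0.0832), without His A (adjusted p = 0.0885) and without His B (adjusted p = 0.0954). The helicase Eif4a1 was at 636 ± 44.3 CPM unprecipitated and 895 ± 52.6 CPM in His and did not pass (adjusted p = 0.0589).

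Transcripts of proteins that store and silence maternal mRNA were mostly lower in His. Of 31 tested members, 3 rose (9.68%) and 17 fell (54.8%), with a median log2FC of -1.30. Lsm14a, a repressor found in processing bodies, was at 966 and 971 CPM in ni, 593 and 595 CPM in total, and 77.2 and 76.7 CPM in His. It was 10.2-fold lower (log2FC -3.28 ± 0.27 SE, adjusted p = 1.23e-04). Dazl, a germ cell protein that binds 3' untranslated regions, was at 284 and 268 CPM in ni, 338 and 345 CPM in total, and 23.1 and 36.2 CPM in His (log2FC -3.36 ± 0.25 SE, adjusted p = 8.93e-05). The His values of both lay below all unprecipitated ones, and the IgG values were lower still, at 2.70 and 3.42 CPM and 0.338 and 0.855 CPM. Other members that fell, named after their values were seen, were the Y-box protein Ybx1 (log2FC -2.66, adjusted p = 8.09e-05), the helicase Ddx6 (log2FC -2.28, adjusted p = 0.00908) and the poly(A)-binding protein Pabpc1 (log2FC -2.20, adjusted p = 0.00251).

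In the same list, 3 members rose. Zar1, an egg protein that binds stored mRNA, was at 273 and 299.7 CPM in ni, 308 and 412 CPM in total, and 868 and 801 CPM in His (log2FC 1.38 ± 0.22 SE, adjusted p = 0.00193). The others that rose, named after their values were seen, were the poly(A)-binding protein Pabpn1l (log2FC 1.00, adjusted p = 0.0183) and the cap-binding protein Eif4e1b (log2FC 0.66, adjusted p = 0.0466). Rbpms2, the most abundant member, was at 1216 ± 172 CPM unprecipitated and 1554 ± 47.2 CPM in His and did not pass (adjusted p = 0.173).

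Factors of deadenylation, tailing and decay were lower or did not pass. Of 36 tested members, 0 rose (0%) and 16 fell (44.4%), with a median log2FC of -0.76. The median member was at 108 and 112 CPM in ni and 79.8 and 88.7 CPM in total. Of all genes, 33.2% fell at 30 to 100 CPM and 43.1% at 100 to 300 CPM. Cnot7, a catalytic deadenylase of the CCR4-NOT complex, was at 1372 and 1406 CPM in ni, 1099.8 and 1047 CPM in total, and 55.0 and 44.7 CPM in His. It was 24.7-fold lower (log2FC -4.59 ± 0.22 SE, adjusted p = 2.23e-05). Btg4, the adaptor that brings this complex to maternal mRNAs, was the most abundant member, at 5421 and 5595 CPM in ni, 5895 and 5284 CPM in total, and 1732 and 1720.1 CPM in His. It was 3.22-fold lower (log2FC -1.68 ± 0.18 SE, adjusted p = 3.28e-04), with IgG at 27.0 and 184 CPM. For both genes the replicates within ni, total and His lay close together, and those of IgG did not. Others that fell, named after their values were seen, were the N6-methyladenosine readers Ythdf2 (log2FC -2.73, adjusted p = 2.27e-04) and Ythdf3 (log2FC -2.96, adjusted p = 5.33e-04) and the scaffold Cnot1 (log2FC -1.10, adjusted p = 0.0218). Upf1, central to nonsense-mediated decay, was at 87.0 and 95.2 CPM in ni, 19.4 and 34.3 CPM in total, and 59.1 and 149 CPM in His. Its groups overlapped and it did not pass (log2FC 0.93 ± 0.64 SE, adjusted p = 0.269).

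In a list of egg coat, oocyte-secreted and a few other oocyte proteins more members rose than fell. Of 16 tested members, 7 rose (43.8%) and 1 fell (6.25%), with a median log2FC of 0.69. Gdf9, a growth factor that the oocyte sends to its follicle, was at 981 and 1091 CPM in ni, 1242 and 1431 CPM in total, and 2281 and 2280.1 CPM in His (log2FC 0.96 ± 0.21 SE, adjusted p = 0.00769). Its partner Bmp15 was at 3859 and 3958 CPM in ni, 2896 and 2869 CPM in total, and 2323 and 2584 CPM in His, lower in His than in each unprecipitated library, and did not pass (log2FC -0.45 ± 0.22 SE, adjusted p = 0.127). Oosp3, an oocyte-secreted protein, was at 68.0 and 39.4 CPM in ni, 618 and 163 CPM in total, and 994 and 1138 CPM in His (log2FC 3.04 ± 0.87 SE, adjusted p = 0.0235). The unprecipitated values of Oosp3 alone ranged from 39.4 to 618 CPM, and its call was lost without His A (adjusted p = 0.0592) and without His B (adjusted p = 0.0727), against the total pair (adjusted p = 0.0840) and with the count tests (edgeR adjusted p = 0.0911, DESeq2 0.114). Tcl1, a coactivator of AKT kinase and neither a coat nor a secreted protein, was counted in the list and was its most abundant member, at 10291 ± 596 CPM unprecipitated and 16679 ± 225 CPM in His (log2FC 0.70 ± 0.19 SE, adjusted p = 0.0199). That call was lost without ni A (adjusted p = 0.0950), without His A (adjusted p = 0.0709) and without His B (adjusted p = 0.0863) and after quantile normalization, where the log2FC was 0. The egg coat genes themselves went in opposite directions: Zp3 rose (log2FC 0.75 ± 0.25 SE, adjusted p = 0.0399, named after its values were seen) and Zp2 fell (log2FC -1.05 ± 0.26 SE, adjusted p = 0.0126), a call lost without His A (adjusted p = 0.0931).

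The subcortical maternal complex is a lattice of egg proteins under the membrane that is needed to pass the first cleavages. Of 16 tested members, 0 rose (0%) and 8 fell (50%) among its genes and the oocyte NLRP genes, and each of the 8 that fell was an Nlrp gene. The median member was at 322 and 337 CPM in ni and 231 and 179 CPM in total. Of all genes, 43.1% fell at 100 to 300 CPM and 48.5% at 300 to 1000 CPM. Over all 13 tested genes with an Nlrp symbol, in the list or not, 10 fell and 2 rose. The 2 that rose, named after their values were seen, were Nlrp6, at 0 and 1.43 CPM in ni, 1.21 and 2.27 CPM in total, and 11.1 and 16.8 CPM in His (log2FC 2.84 ± 0.53 SE, adjusted p = 0.00391), and Nlrp12, at 2.44 and 4.32 CPM in ni, 3.05 and 3.05 CPM in total, and 7.53 and 17.6 CPM in His (log2FC 1.59 ± 0.46 SE, adjusted p = 0.0239). Both were lower in the unprecipitated libraries than any of the 10 that fell. Nlrp14 was at 723 and 751 CPM in ni, 226 and 196 CPM in total, and 11.5 and 34.0 CPM in His. It was 20.9-fold lower (log2FC -4.24 ± 0.63 SE, adjusted p = 0.00139). Nlrp4f was at 2403 and 2526 CPM in ni, 1405 and 1276 CPM in total, and 314 and 339.8 CPM in His (log2FC -2.47 ± 0.31 SE, adjusted p = 6.27e-04). In both genes the total libraries lay below the ni libraries and the His libraries below both. Nlrp5, the member known as MATER, was named after its values were seen and had a log2FC of -1.90 ± 0.59 SE (adjusted p = 0.0312). Zbed3, which belongs to the complex, was at 22123 and 25045 CPM in ni, 19034 and 24459 CPM in total, and 33149 and 33269 CPM in His. His lay above the others and Zbed3 did not pass (log2FC 0.56 ± 0.22 SE, adjusted p = 0.0664). Ooep, another structural member, was at 261 and 157 CPM in ni, 870.4 and 649 CPM in total, and 629 and 602 CPM in His (log2FC 0.65 ± 0.59 SE, adjusted p = 0.404). Its His values fell between the pairs, and its log2FC was 1.60 against the ni pair and -0.29 against the total pair.

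Genes transcribed at the 2-cell stage went in both directions, more of them lower than higher. Of 49 tested members, 12 rose (24.5%) and 27 fell (55.1%), with a median log2FC of -1.01. Relative to all genes this median was -0.83, and -0.55 without His A. All 6 Zscan4 genes, which encode proteins active in telomere lengthening and genome activation, fell, with a median of -3.44. Their CPM summed to 437 and 471 CPM in ni, 601 and 449.7 CPM in total, and 40.3 and 39.4 CPM in His. Zscan4d was at 229 and 258 CPM in ni, 310.3 and 241 CPM in total, and 13.2 and 16.9 CPM in His (log2FC -4.02 ± 0.24 SE, adjusted p = 6.22e-05). Every Zscan4 gene was lower in both His libraries than in all 4 others. The 6 Obox homeobox genes tested, regulators of genome activation, all fell, with a median of -1.60. Their CPM summed to 5121 and 4654 CPM in ni, 8156 and 5517 CPM in total, and 2284 and 2307 CPM in His. Obox5, the most abundant, was at 3173 and 2834 CPM in ni, 5348 and 3536 CPM in total, and 1553 and 1484 CPM in His (log2FC -1.25 ± 0.27 SE, adjusted p = 0.00669). Of 9 Tdpoz genes, which encode proteins with TRAF and BTB/POZ domains, 6 fell and none rose (median -1.28).

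Some other 2-cell transcripts were higher in His. Among them were Dux and Duxf3, for an activator of the 2-cell program, the Tcstv and AF0670 genes, B020031M17Rik and Gm20767. These 8 were grouped with their values known, so their shared direction is not a result about a family. Each of the 8 passed, with a median log2FC of 1.74. Their CPM summed to 566 and 457 CPM in ni, 1291 and 1018 CPM in total, and 2572 and 2504 CPM in His. In IgG the sums were 2415 and 1639 CPM, but the median member was high in IgG A only. It was at 80.9 and 69.5 CPM in ni, 177 and 146 CPM in total, 323 and 339 CPM in His and 316 and 53.6 CPM in IgG. AF067061 was at 86.5 and 74.6 CPM in ni, 223 and 180.3 CPM in total, and 605 and 579 CPM in His (log2FC 2.21 ± 0.43 SE, adjusted p = 0.00440), with 609 and 804 CPM in IgG. Dux itself, named after its values were seen, was at 1.07 and 3.13 CPM in ni, 0.509 and 1.26 CPM in total, and 20.8 and 8.21 CPM in His (log2FC 2.61 ± 0.55 SE, adjusted p = 0.00620). In the Usp17l deubiquitinase family 2 of 5 rose and 1 fell. Members of each of these families are similar copies, so their reads may have been split or lost between them.

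Listed transcription regulators of pluripotency and genome activation rose and fell at shares near those of all genes. Of 27 tested members, 3 rose (11.1%) and 8 fell (29.6%), with a median log2FC of -0.58. Trim28, the corepressor of KRAB zinc finger proteins, was at 102 and 100.2 CPM in ni, 78.0 and 83.0 CPM in total, and 387 and 304 CPM in His (log2FC 1.91 ± 0.23 SE, adjusted p = 5.52e-04). Trim24, of the same protein family, was at 59.6 and 59.1 CPM in ni, 44.4 and 33.7 CPM in total, and 2.15 and 6.95 CPM in His (log2FC -3.29 ± 0.44 SE, adjusted p = 8.46e-04). The groups were separate in both genes, in opposite directions, and IgG held Trim28 at 854 and 385 CPM and Trim24 at 0.169 and 6.20 CPM. Dppa3, a maternal factor that protects the methylation state of the egg genome, was at 3185 and 3039 CPM in ni, 5591 and 4140.2 CPM in total, and 4547 and 4343 CPM in His and did not pass (adjusted p = 0.578). Klf17, a zinc finger factor, was at 2799 ± 356 CPM unprecipitated and 1599.9 ± 198 CPM in His (log2FC -0.80 ± 0.21 SE, adjusted p = 0.0146), a call lost without ni A (adjusted p = 0.0551) and without His B (adjusted p = 0.101). The list's median relative to all genes was -0.41, -0.02 without His B and 0.06 among genes with a mean of at least 5 CPM.

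In DNA methylation and imprint protection most members did not pass. Of 18 tested members, 1 rose (5.56%) and 4 fell (22.2%), with a median log2FC of -0.43. Uhrf1, which brings the maintenance methyltransferase to replicated DNA, was at 903 and 1032 CPM in ni, 498 and 609.6 CPM in total, and 1035 and 934 CPM in His, with overlapping groups (log2FC 0.43 ± 0.30 SE, adjusted p = 0.277). Mbd3, a subunit of a repressor complex, rose (log2FC 1.13 ± 0.30 SE, adjusted p = 0.0172), a call lost without His B (adjusted p = 0.106). Mbd4, a glycosylase that repairs deaminated methylcytosine, was called lower (log2FC -2.68 ± 0.85 SE, adjusted p = 0.0339). It had no read in His A and 13.1 CPM in His B, and its log2FC was -0.77 without His A. Its call was lost without any of the 6 libraries but His B (adjusted p = 0.0586 to 0.125).

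Genes of protein folding were mostly lower in His. Of 45 tested members, 1 rose (2.22%) and 25 fell (55.6%), with a median log2FC of -1.12. Hsp90b1, the HSP90 of the endoplasmic reticulum, was at 64.3 and 52.9 CPM in ni, 49.95 and 49.3 CPM in total, and 3.95 and 4.17 CPM in His. It was 13.3-fold lower (log2FC -3.44 ± 0.30 SE, adjusted p = 1.38e-04) and had no read in IgG. The HSP70 genes Hspa5 (log2FC -3.25, adjusted p = 5.64e-04) and Hspa8 (log2FC -2.82, adjusted p = 0.00148) and the mitochondrial chaperonin Hspd1 (log2FC -2.99, adjusted p = 1.64e-04) fell too and were chosen after their values were seen. Chaperones of the cytosol, the mitochondrion and the endoplasmic reticulum were thus all among those lower. Hsf1, the regulator of the heat shock response, was the single member that rose, at 361 ± 66.4 CPM unprecipitated and 668 ± 24.5 CPM in His (log2FC 0.90 ± 0.23 SE, adjusted p = 0.0133). That call was lost without His A (adjusted p = 0.0646) and without His B (adjusted p = 0.0506). Hsp90ab1, the most abundant, was at 654 ± 28.2 CPM unprecipitated and 381 ± 1.501 CPM in His (log2FC -0.78 ± 0.18 SE, adjusted p = 0.00966), a call lost without His A (adjusted p = 0.0530) and without His B (adjusted p = 0.0527).

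The proteasome, which degrades ubiquitin-tagged proteins, and the secretory pathway had members in both directions, the secretory genes at shares near those of all genes. Of 47 tested members, 8 rose (17.02%) and 7 fell (14.9%) for the proteasome, with a median log2FC of 0.30. Psmc6, an ATPase of its cap, was at 19.6 ± 4.44 CPM unprecipitated and 1.22 ± 0.474 CPM in His (log2FC -3.20 ± 0.40 SE, adjusted p = 6.11e-04). Psma5, a subunit of its core, was at 17.2 ± 7.60 CPM unprecipitated and 49.5 ± 13.04 CPM in His (log2FC 1.54 ± 0.42 SE, adjusted p = 0.0191), a call lost without His B (adjusted p = 0.0770). For coat, SNARE and other secretory genes, of 77 tested members, 10 rose (12.99%) and 22 fell (28.6%), with a median log2FC of -0.25. Cope, of the COPI coat, was at 18.8 ± 3.77 CPM unprecipitated and 65.6 ± 17.9 CPM in His (log2FC 1.74 ± 0.32 SE, adjusted p = 0.00352), and Snap23, a membrane fusion protein, was at 61.4 ± 10.5 CPM unprecipitated and 6.05 ± 1.80 CPM in His (log2FC -3.15 ± 0.32 SE, adjusted p = 2.37e-04). Relative to all genes the secretory median was -0.07, and 0.04 without His A.

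Splicing factors held a larger share of genes that fell than all genes did, and a similar share that rose. Of 103 tested members, 13 rose (12.6%) and 46 fell (44.7%), with a median log2FC of -0.63. Hnrnpd, which binds AU-rich elements, was at 126 and 113 CPM in ni, 88.2 and 91.3 CPM in total, and 8.13 and 11.6 CPM in His (log2FC -3.28 ± 0.28 SE, adjusted p = 1.39e-04), with no read in IgG. Lsm8, part of the ring that binds U6 RNA, was at 4.92 ± 3.31 CPM unprecipitated and 24.6 ± 0.437 CPM in His (log2FC 2.29 ± 0.56 SE, adjusted p = 0.0119), but did not pass against the total pair alone (adjusted p = 0.0530). Snrpg, of the Sm ring, was at 118 and 66.6 CPM in ni, 592 and 360.1 CPM in total, and 606 and 557 CPM in His. Its His values lay far above the ni pair and overlapped the total pair (log2FC 1.51 ± 0.74 SE, adjusted p = 0.129).

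Cell cycle regulators were centred near all genes. Of 56 tested members, 9 rose (16.1%) and 18 fell (32.1%), with a median log2FC of -0.10. Ttk, a kinase of the spindle checkpoint, was at 322 and 338 CPM in ni, 163 and 149.8 CPM in total, and 10.5 and 13.3 CPM in His. It was 20.5-fold lower (log2FC -4.15 ± 0.38 SE, adjusted p = 1.62e-04). Pttg1, the securin that holds back separase, was at 2466 and 1603 CPM in ni, 6260.3 and 4258 CPM in total, and 8924 and 9076 CPM in His (log2FC 1.49 ± 0.46 SE, adjusted p = 0.0316). The call for Pttg1 was lost without ni A (adjusted p = 0.0735), without His A (adjusted p = 0.0847) and without His B (adjusted p = 0.0903) and after quantile normalization (adjusted p = 0.126). Relative to all genes the list's median was 0.08, -0.10 after quantile normalization and -0.03 without His A.

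Of 60 histone genes in the table, 37 were tested, of which 32 did not pass. The other genes were 4 that rose (10.8%, against 14.2% of all genes) and 1 that fell (2.70%, against 25.9%), and the median log2FC was 0.67. The egg linker histone H1f8 was at 1669.5 and 1631 CPM in ni, 3032 and 3272 CPM in total, and 3869.5 and 3692 CPM in His. Both His libraries were above the others, but it did not pass (adjusted p = 0.0987). H1f0, another linker histone, was at 243 ± 32.3 CPM unprecipitated and 154 ± 14.3 CPM in His (log2FC -0.64 ± 0.22 SE, adjusted p = 0.0417), a call lost without ni A, ni B, total B, His A or His B (adjusted p = 0.0761 to 0.178).

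**Figure D4:**
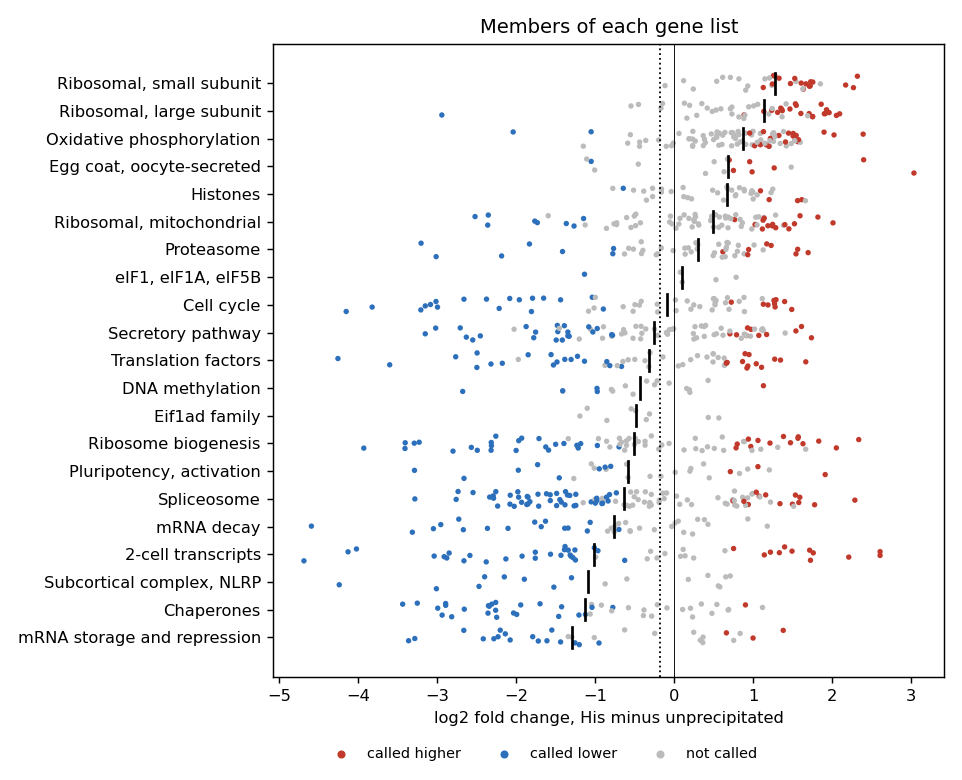
Log2 fold change (His minus unprecipitated) of every tested member of each gene list; red points were called higher, blue lower, and grey did not pass, black bars are list medians and the dotted line is the median of all genes (-0.18). Ribosomal and respiratory lists lie mostly right of the dotted line with few blue points, whereas splicing, decay, storage and chaperone lists lie mostly left of it and still hold members on the right.

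Markers of other cell types differed between groups in some cases. Of 4 tested blood markers, Hba-a1, Hba-a2 and Cd68 rose. The 4 summed to 11.9 and 10.5 CPM in ni, 61.1 and 45.8 CPM in total, 80.0 and 99.3 CPM in His and 0 and 0 CPM in IgG. Hba-a1, a haemoglobin alpha chain, was at 4.46 and 4.40 CPM in ni, 21.7 and 13.3 CPM in total, and 52.6 and 64.8 CPM in His (log2FC 2.59 ± 0.60 SE, adjusted p = 0.00978). The call for Cd68 (log2FC 1.39 ± 0.45 SE, adjusted p = 0.0359) was lost without ni A (adjusted p = 0.0905), without ni B (adjusted p = 0.0726), without His A (adjusted p = 0.0516) and without His B (adjusted p = 0.0901). The macrophage marker Lyz2 had no read in either His library, with 0.429 and 0.476 CPM in ni and 25.9 and 17.1 CPM in total. Blood markers were thus higher in the total than in the ni libraries and were not detected in IgG.

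Of 5 tested markers of cumulus and granulosa cells, Cyp19a1, Has2 and Nr5a2, which the embryo also expresses, fell. The 12 in the table, tested or not, summed to 47.0 and 55.1 CPM in ni, 39.9 and 48.5 CPM in total, 14.6 and 30.6 CPM in His and 1.01 and 30.8 CPM in IgG. Of 6 tested blastocyst markers, Krt18 (log2FC 1.31 ± 0.35 SE, adjusted p = 0.0177), Krt8 (log2FC 1.497 ± 0.53 SE, adjusted p = 0.0497) and Sox17 (log2FC 2.66 ± 0.50 SE, adjusted p = 0.00387, named after its values were seen) rose. The 9 in the table, tested or not, summed to 42.2 and 42.1 CPM in ni, 73.6 and 57.6 CPM in total, 106 and 70.6 CPM in His and 116 and 1.07 CPM in IgG. The call for Krt18 was lost without ni A (adjusted p = 0.0535) and without His B (adjusted p = 0.0514), and that for Krt8 without ni A, ni B, total B or His A (adjusted p = 0.0960 to 0.261). Prm2, the single sperm marker tested, was at 1.63 and 1.15 CPM in ni, 4.71 and 4.42 CPM in total, and 1.08 and 7.20 CPM in His, with overlapping groups, and at 47.4 and 54.3 CPM in IgG, above all other libraries. Epcam, the single oviduct marker tested, was at 79.2 ± 11.2 CPM unprecipitated and 35.6 ± 1.29 CPM in His (log2FC -1.12 ± 0.25 SE, adjusted p = 0.00809). The part of such cells in the differences above was not tested.

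The IgG libraries are set beside the others as values only, since a comparison of IgG with the unprecipitated libraries would share them. They detected fewer genes, 5148 and 5564 at 1 CPM or more against 12246 and 12270 in His. Among genes that rose in His, 27.2% had no read in either IgG library. The share was 39.4% of those that fell and 41.7% of all genes tested. Their levels differed, with median unprecipitated values of 17.1 CPM for genes that rose, 31.3 CPM for those that fell and 13.6 CPM for all. Absence from IgG depended on level. In IgG A, 83.3% of genes at 1 to 3 CPM unprecipitated had no read, and 2.04% at 300 to 1000 CPM. Genes that rose had median levels of 3.88 and 6.41 CPM in IgG A and B, and genes that fell had a median of 0 in both. Relative to the unprecipitated mean, the median over all genes was -0.20 and -0.22 in His and -2.07 and -1.84 in IgG. The median of small-subunit ribosomal genes was -0.38 and -0.61 in ni, 0.52 and 0.45 in total, 1.31 and 1.37 in His and 1.79 and 1.86 in IgG. For oxidative phosphorylation genes it was -0.47 and -0.49 in ni, 0.55 and 0.46 in total, 0.96 and 0.87 in His and -1.75 and -0.39 in IgG. For chaperones it was 0.19 and 0.15 in ni, -0.25 and -0.11 in total, -1.08 and -1.57 in His and -4.26 and -3.13 in IgG. For 2-cell transcripts it was -0.14 and -0.08 in ni, 0.25 and 0.02 in total, -1.21 and -0.78 in His and -4.63 and -3.01 in IgG. Small-subunit ribosomal transcripts were thus above the unprecipitated mean in both kinds of pulldown. For oxidative phosphorylation genes the median was above it in His and below it in IgG, where 40 and 38 of the 90 genes in the table had no read, while their summed level was 3615 and 3577 CPM in ni, 5425 and 5417 CPM in total, 6775 and 6839 CPM in His and 7833 and 9290.0 CPM in IgG, highest in IgG. Medians of chaperone and 2-cell transcripts were below it in both. When the IgG libraries were fitted as a further group, which leaves each log2FC as it was and adds their spread, 744 genes rose and 2079 fell. Among genes with large differences, Tigd5 (adjusted p = 0.0922), Ctu2 (0.330), Fzd9 (0.111), Ltv1 (0.123), Nlrp14 (0.0827), Ttk (0.0884) and Btg4 (0.112) then no longer passed.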

How the data were processed

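The deposited values are CPM, made by the authors from gene counts. The submitters' processing notes name Trim Galore 0.6.7, FastQC, HISAT2 2.2.1, featureCounts 2.0.1, edgeR and the build GRCm39. Per the labels' protocols, a Smart-seq2 v4 kit and Nextera XT gave libraries read as 150 bp pairs. Every CPM was a whole multiple of 1 read (100% within 0.01), so reads and totals (4678563 to 25209070) could be recovered. For the 14387 genes that reached 1 CPM in 2 or more of the 6 libraries, log2(CPM + 1) was compared between 2 His and 4 unprecipitated libraries by limma 3.58.1 (R 4.3.3; lmFit and eBayes with a trend, two-sided). Adjustment was by Benjamini-Hochberg over all of them, with a threshold of 0.05. "Rose", "fell" and "called" mean past it. Values after ± are SD (n = 4 unprecipitated, n = 2 His) or, where marked, limma's SE, and a fold in CPM is a ratio of means. The unprecipitated SD and the SE include the difference between the ni and total pairs. The script was checked on simulated reads.

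The comparison, gene lists and tests were chosen with earlier results of these data known. Lists are described by counts and medians, without a test. The naming rule takes the Eif1ad genes, the 10 largest called changes in each direction (mean of at least 10 CPM, no overlap of the groups), and of each list the 2 most abundant and the most changed members. Not all of these are printed, and other genes are marked as named after their values were seen. Gene symbols are the file's. The RefSeq table is of another build and served only to find overlapping genes. Promoter sequences covered 77.5% of the genes tested, too few for a check of GC content, and transcript length was not analysed here. Alternatives were pseudocounts of 0.1 and 5, filters, scalings, no trend, library weights, the replicate letter as a block, IgG in the fit, each unprecipitated pair alone, leaving out each library, and count tests of the recovered reads with edgeR 4.0.16 and with DESeq2 1.42.0. The knockdown table was not used here.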

Additional observations from a re-analysis of the deposited data

Results flagged for a closer look

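Among 116 genes checked for 1 unprecipitated library far from the other 3, 2 stood out. The cutoff gives 5% by chance only for 4 libraries that are alike. These formed pairs (median SD 0.15 in ni, 0.21 in total and 0.37 over the 4), so the low count cannot be compared with 5%. Snap23 was at 46.0 CPM in ni B, the lowest of the 4, where the others were at 64.9 to 69.6 CPM; its His values of 4.78 and 7.33 CPM lay below all of them. Krt18 was at 15.4 CPM in total B, the highest of the 4, where the others were at 10.1 to 10.4 CPM; its His values of 25.8 and 33.7 CPM lay above all of them.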

How the results depend on the processing

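No gene was called in opposite directions under any alternative run. The counts of 2047 higher and 3732 lower became 744 and 2079 with IgG in the fit, and 2481 were lower against the total pair alone; leaving out a library gave 1261 to 1867 higher and 2746 to 3565 lower, with 1261 higher without ni A. By edgeR 1869 and 3425 were called and by DESeq2 2455 and 3966. The letters A and B did not pair the samples (their differences correlated at 0.22 between ni and total, 0.0057 between ni and His and 0.016 between total and His), and with the replicate block 1766 were higher and 3418 lower, 1761 and 3382 of them the same genes. Of the 78 named genes called, 46 were called under every alternative run. Medians of lists relative to all genes that moved by more than the spread between libraries or changed sign were: against the ni pair, Eif1ad genes 0.18, mRNA decay -0.88, pluripotency regulators -0.19, spliceosome -0.64 and secretory pathway 0.065; against the total pair, mitochondrial ribosomal proteins 0.30, ribosome biogenesis -0.016, 2-cell transcripts -1.07, pluripotency regulators -0.23 and histones 0.52; with a pseudocount of 0.1, translation factors 0.015, 2-cell transcripts -0.91, cell cycle 0.24 and secretory pathway 0.085; with a pseudocount of 5, 2-cell transcripts -0.58, pluripotency regulators -0.19 and histones 0.49; after quantile normalization, 2-cell transcripts -0.93, spliceosome -0.57 and cell cycle -0.096; with edgeR, 2-cell transcripts -1.03; with DESeq2, 2-cell transcripts -1.03; at a mean of at least 5 CPM, pluripotency regulators 0.059, spliceosome -0.53 and secretory pathway 0.037; with library weights, pluripotency regulators -0.18 and spliceosome -0.60. Leaving out each library gave translation factors -0.19 to 0.11, 2-cell transcripts -0.999 to -0.55, pluripotency regulators -0.50 to -0.018, DNA methylation -0.51 to 0.026, spliceosome -0.57 to -0.42, cell cycle -0.027 to 0.13, chaperones -1.35 to -0.87 and secretory pathway -0.10 to 0.045. Genes whose difference changed sign were: against the total pair, Eif1ad19 -0.17, Eif1 -0.35, Rps27l -0.78, Rps4l 0.034, Mrpl40 -0.074, Ooep -0.29, Dppa3 -0.11 and Prm2 -0.43; with library weights, Eif1ad16 0.031 and Eif1ad4 0.12; against the ni pair, Eif1ad16 0.26 and Eif1ad4 0.42; after quantile normalization, Eif1 -0.026 and Rps4l 0.092; with edgeR, Eif1 -0.0069 and Rps27l -0.15; with DESeq2, Rps27l -0.090. Leaving out each library gave Eif1ad16 -0.65 to 0.088, Eif1ad4 -0.69 to 0.084, Eif1 -0.11 to 0.23, Rps27l -0.22 to 0.66 and Prm2 -0.81 to 1.17. For all of these the cause was not tested. In His a gene with no read may lie at up to 0.359 to 0.379 CPM, the floor of 3 reads.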

Other observations

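Some groups of genes, put together by symbol after their values were seen, are given as values without a test. The 27 listed small nucleolar and Cajal body RNAs, most of which guide modification of other RNAs, summed to 5.57 and 6.66 CPM in ni, 20.3 and 15.2 CPM in total, and 105 and 124 CPM in His, and to 832 and 5212 CPM in the IgG libraries. The 11 that were tested give no count of direction for the group, since 5 of them were under 1 CPM in all 4 unprecipitated libraries and entered only through His. Most of the sum in His was Snora47, which overlaps Zbed3. Of 12 tested Snhg genes, which are named as hosts of small nucleolar RNAs, 6 rose and none fell (median 1.49).

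Among 304 tested genes with a Zfp symbol, most of which encode zinc finger proteins, 20 rose and 117 fell (median -0.91). Of 40 tested Pramel genes, a family of leucine-rich repeat proteins expanded in the mouse, 18 fell and none rose (median -0.85), and their sum was 5197 and 4408 CPM in ni, 6666 and 4782 CPM in total, and 2858 and 2820.2 CPM in His. Of 36 tested Cep genes, for centrosomal proteins, 1 rose and 19 fell (median -1.28). Among 11 Cldn genes, for the claudins of tight junctions, 6 rose and none fell (median 1.01), with a sum of 136 and 122 CPM in ni, 149 and 156 CPM in total, and 374 and 340.3 CPM in His and of 276 and 374 CPM in IgG. In IgG, 6 of the 11 had no read in either library, and the median member was at 0 CPM in both, against 18.2 and 18.9 CPM in His. Of all genes tested, 14.2% rose and 25.9% fell.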
